A study of Mus musculus with 6 samples.

Results

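NF-kB is the family of dimeric transcription factors built from the products of Rel, Rela, Relb, Nfkb1 and Nfkb2, held in the cytoplasm by IkB proteins until a signal has these degraded. Several of its own inhibitors, among them Nfkbia, Nfkbie and Tnfaip3, are also its target genes, which makes the pathway limit itself. In blood stem cells the pathway is known for its response to inflammatory cytokines and for its part in cell survival. Described here are the subunits and the feedback inhibitors, a set of 10 genes taken by name: Nfkb1, Nfkb2, Rel, Rela, Relb, Nfkbia, Nfkbie, Nfkbiz, Tnfaip3 and Bcl3. Of these, 9 were measured by a probe set that carried their own symbol alone, 1 probe set for each gene, out of 19938 genes in all. Nfkb1 was not analysed here.

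The arrays compared WT mice, whose latexin gene (Lxn) is intact, with Lxn-/- mice, which carry a deletion of its exons 2 to 4 and make no latexin protein, in long-term hematopoietic stem cells (LT-HSCs). All mice were females of the C57BL/6 background, aged 8 to 12 weeks, and no treatment other than the genotype is labelled. Each genotype had 3 pools of nearly 100000 cells, each from 10 to 20 mice and each measured on 1 Affymetrix mouse Gene ST array. The cells were sorted from bone marrow as c-Kit+ and Sca1+ and as lacking lineage markers, CD34 and a marker labelled Flt2. Because animals were pooled, the spread between arrays is a spread between pools and holds no information on single mice.

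Values are log2 expression after robust multi-array averaging (RMA), so a difference of 1 is a 2-fold change, and levels of different genes are not compared because they come from different probes. A probe set was taken as above background when its mean over the 6 arrays exceeded 6.94, the 95th percentile of 1210 probe sets of odorant and pheromone receptors. All 9 members passed this level, as did 14020 of the 19938 genes. Of the stem cell markers, 13 of 13 measured did, with Kit at 12.87 in the mean of 6 arrays. Cd34 and Flt3 also passed it, with means of 13.15 and 11.96, although the gate selects against CD34 protein. Lxn itself had 8.99, 9.09 and 9.55 in WT against 8.66, 8.78 and 8.78 in Lxn-/- pools, and the position of its probes relative to the deleted exons is not known here, so its signal does not check the deletion. WT replicate 3 stood apart from the other arrays on the first principal component (score 23.3, against -12.6 to 7.97), and values of the members and the lists are given with and without it.

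No member passed the test for a difference between genotypes. In limma, with adjustment over all 23410 probe sets that carry a symbol, 0 of 9 members and 0 probe sets in all (0%) had an adjusted p under 0.05, and the lowest adjusted p of any probe set and of any member was 0.993. At an unadjusted p under 0.05 there was 1 member, Nfkbiz, on the higher side, where 1.28% of all genes lay, and 0 on the lower side, where 2.47% did, which makes 749 genes in both directions. Differences, given throughout as Lxn-/- minus WT in log2 units, were above 0 for 7 of the 9 members, against 44% of all genes. With the arrays set to a common median they were above 0 for 6 of 9, against 25.6% of all genes. Their median was 0.091, beside -0.013 over all genes. Without WT replicate 3, the median of the members was 0.028 with 6 of 9 above 0, beside -0.0064 over all genes and 46.9% of them above 0.

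**Figure D1:**
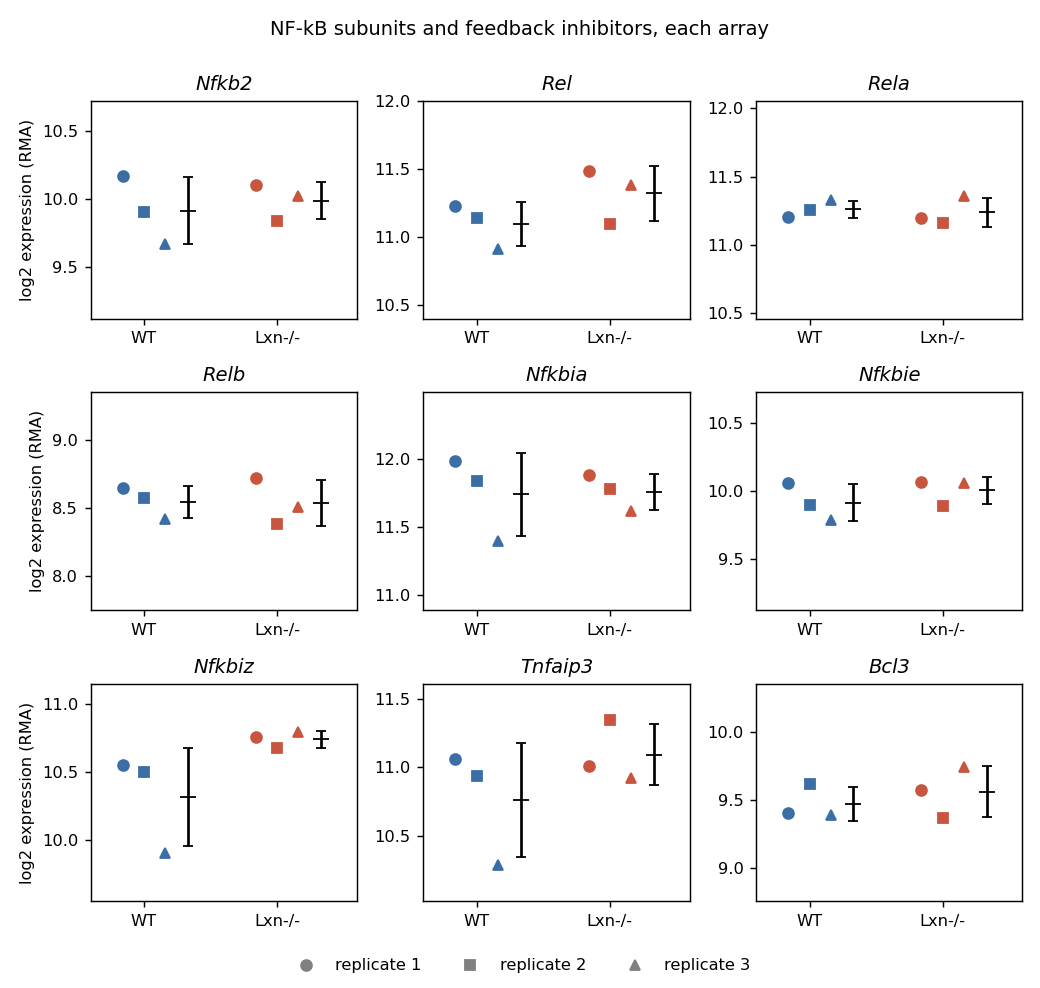
Log2 expression (RMA) of the 9 measured members in each array, WT in blue and Lxn-/- in red, with the marker shape giving the replicate number and the black bar the mean ± SD (n = 3); every panel spans the same height in log2 units. Only for Nfkbiz do all 3 Lxn-/- values lie above all 3 WT values. WT replicate 3, whose whole array had the lowest median, is the lowest array for 6 of the 9 genes.

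Among the subunits with a transactivation domain, Rel, which encodes c-Rel, had 11.23, 11.14 and 10.92 in WT and 11.49, 11.10 and 11.38 in Lxn-/- (replicates 1, 2 and 3 in that order, here and below). Lxn-/- replicates 1 and 3 were above every WT array and Lxn-/- replicate 2 was among the WT values, so the genotypes overlapped. The difference was 0.23 (SE 0.12, 95% confidence interval -0.052 to 0.51, unadjusted p = 0.0969 in limma, adjusted p = 0.993), and 0.14 (SE 0.12) without WT replicate 3.

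Rela, which encodes p65, the main activating subunit of the classical pathway, had 11.20, 11.25 and 11.33 in WT and 11.20, 11.16 and 11.36 in Lxn-/-. Its 6 values had an SD of 0.079, the smallest among the members and greater than that of 31.6% of the genes above background. The difference was -0.024 (SE 0.078, 95% confidence interval -0.20 to 0.15), and 0.0087 (SE 0.087) without WT replicate 3. Rela is the member whose level varied least between pools, and WT replicate 3 was the second highest of its 6 arrays, in contrast to its low place for Rel.

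Relb, the activating partner in the alternative pathway, had 8.64, 8.57 and 8.42 in WT and 8.72, 8.38 and 8.51 in Lxn-/-. The highest and the lowest of these 6 arrays both belonged to Lxn-/-. The difference was -0.0081 (SE 0.10, 95% confidence interval -0.25 to 0.23), and -0.072 (SE 0.11) without WT replicate 3.

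Nfkb2 encodes p100, which acts as an inhibitor of RelB until it is processed to the DNA-binding subunit p52. It had 10.17, 9.90 and 9.67 in WT and 10.10, 9.84 and 10.02 in Lxn-/-. The Lxn-/- values lay inside the range of the WT values. The difference was 0.074 (SE 0.13, 95% confidence interval -0.23 to 0.38), and -0.048 (SE 0.12) without WT replicate 3.

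Nfkbia encodes IkB-alpha, the classical inhibitor that is degraded and then resynthesised when NF-kB is active. It had 11.98, 11.84 and 11.39 in WT and 11.88, 11.77 and 11.62 in Lxn-/-. All Lxn-/- values again lay inside the WT range, which WT replicate 3 extended downward. The difference was 0.019 (SE 0.15, 95% confidence interval -0.32 to 0.36). Without WT replicate 3 it was -0.15 (SE 0.10, 95% confidence interval -0.39 to 0.083), with the opposite sign.

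Nfkbie, which encodes the related inhibitor IkB-epsilon, had 10.06, 9.89 and 9.79 in WT and 10.07, 9.89 and 10.06 in Lxn-/-. The arrays of the genotypes overlapped, and its order of arrays was the same as that of Rel. The difference was 0.091 (SE 0.091, 95% confidence interval -0.12 to 0.30), and 0.028 (SE 0.094) without WT replicate 3.

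Nfkbiz encodes IkB-zeta, a nuclear IkB protein that works as a cofactor of NF-kB at a subset of inflammatory genes. It had 10.55, 10.50 and 9.91 in WT and 10.76, 10.67 and 10.80 in Lxn-/-. It was the only one of the 9 members whose 3 Lxn-/- values all lay above its 3 WT values, where 3.3% of all genes showed this, and none of the 9 had the reverse, which 5.49% of all genes did. The log2 difference of 0.42 (SE 0.16, 95% confidence interval 0.054 to 0.79) is 1.34-fold, with an unadjusted p of 0.0298 and an adjusted p of 0.993 in limma. The exact two-sided permutation p was 0.1, the smallest that 3 arrays against 3 allow. Only 0.296% of all genes had a greater difference in this direction.

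The size of that difference rested partly on WT replicate 3. Without it the difference of Nfkbiz was 0.22 (SE 0.076, 95% confidence interval 0.038 to 0.40, unadjusted p = 0.0243 and adjusted p = 0.9995 in limma). The remaining arrays did not overlap, and how many of all genes show this without that array was not counted. Leaving out each array in turn gave differences from 0.22 to 0.54. The 3 Lxn-/- values were close to each other, with an SD of 0.062, while the SD of the WT values was 0.36.

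Bcl3, a nuclear IkB protein that binds p50 and p52 dimers, had 9.40, 9.62 and 9.39 in WT and 9.58, 9.37 and 9.74 in Lxn-/-. The lowest and the highest array were both Lxn-/-. The difference was 0.093 (SE 0.11, 95% confidence interval -0.16 to 0.35), with 0.053 (SE 0.12) without WT replicate 3 and 0.0039 without Lxn-/- replicate 3.

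Tnfaip3 encodes A20, a ubiquitin-editing enzyme that shuts off signalling upstream of the IkB kinases. It had 11.06, 10.94 and 10.28 in WT and 11.01, 11.35 and 10.92 in Lxn-/-. WT replicate 3 was far below the rest and Lxn-/- replicate 2 above them, while the other 4 arrays lay together. The difference was 0.33 (SE 0.20, 95% confidence interval -0.14 to 0.80, unadjusted p = 0.142 in limma), and 0.094 (SE 0.13) without WT replicate 3.

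**Figure D2:**
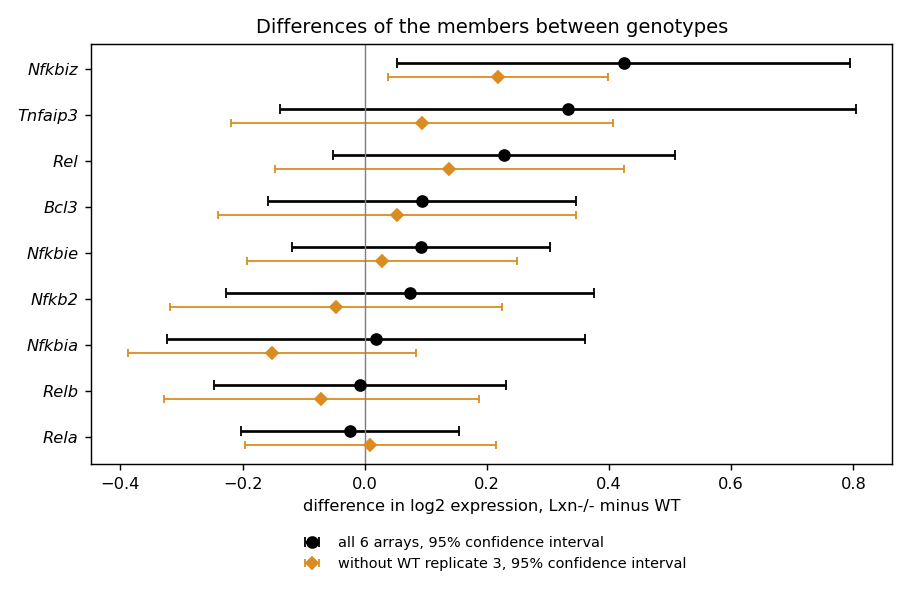
Difference in log2 expression (Lxn-/- minus WT) of the 9 members with limma's 95% confidence interval, in black for all 6 arrays and in orange without WT replicate 3. The interval of Nfkbiz lies above 0 in both, from 0.054 to 0.79 and from 0.038 to 0.40, before adjustment over all probe sets; the other intervals include 0.

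The 3 members that varied most between pools were Tnfaip3, Nfkbiz and Nfkbia, with the subunit gene Rel close to Nfkbia. The SD over 6 arrays was 0.35 for Tnfaip3 and 0.33 for Nfkbiz, above those of 97.4% and 96.9% of the genes above background, whose median SD was 0.10. It was 0.21 for Nfkbia, 0.21 for Rel and 0.18 for Nfkb2, and from 0.12 to 0.15 for Nfkbie, Relb and Bcl3. WT replicate 3 gave the lowest value of Nfkb2, Rel, Nfkbia, Nfkbie, Nfkbiz and Tnfaip3. Lxn-/- replicate 2 gave the lowest value of Rela, Relb and Bcl3. How many of all genes were lowest in these arrays was not counted. The median log2 value of the whole array was also lowest in WT replicate 3, at 7.765 against 7.823 to 7.907 in the others. With each gene centred on its mean over the 6 arrays, the median of the members was 0.10, 0.0064 and -0.28 in WT and 0.13, -0.092 and 0.10 in Lxn-/-.

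Nfkbiz and Nfkbia, both lowest in WT replicate 3, were also compared within single arrays. The log2 value of Nfkbiz minus that of Nfkbia, centred on its mean over the 6 arrays, was -0.22, -0.12 and -0.27 in WT and 0.099, 0.12 and 0.39 in Lxn-/-. All Lxn-/- values lay above all WT values, and WT replicate 3 was close to the other WT arrays on this measure. The mean was -0.20 ± 0.078 (SD, n = 3) for WT arrays and 0.20 ± 0.17 (SD, n = 3) for Lxn-/- arrays. The difference of 0.41 lay between 0.31 and 0.46 with any 1 array left out (exact two-sided permutation p = 0.1, the smallest possible). Of all other genes, 0.592% had values relative to Nfkbia that were higher in Lxn-/- without overlap. Without WT replicate 3, Nfkbiz alone differed by 0.22 and Nfkbia by -0.15, so both genes entered the difference that remained. This pair was chosen after its values were seen, so its permutation p and its range only describe these arrays.

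The DNA before the transcription starts of the members was read from RefSeq promoter windows of assembly GRCm38.p6. These run from 250 bases before to 50 bases after each annotated start. Windows were matched by symbol for 7 of the 9 measured members: Nfkb2, Rel, Rela, Nfkbia, Nfkbie, Tnfaip3 and Bcl3. The kB consensus, a motif of 10 bases bound by NF-kB dimers, was searched on both strands, and overlapping matches were joined. It was present in at least 1 window of 6 of these 7 genes, against 9.55% of 27025 genes, and in 8 of their 10 windows, against 8.46% of 32851 windows of all genes. The windows of the members held a median of 65.2% G and C, against 52.7% over all windows. A match is a sequence of letters and not a measured binding site. The last 150 bases before the first listed start are shown for 4 genes with matches that were lowest in WT replicate 3 and for Rela, which was not; each is written 5′ to 3′ on the strand of the gene, with the kB matches in capitals.
Nfkb2 (chr19:46304587-46304736, + strand): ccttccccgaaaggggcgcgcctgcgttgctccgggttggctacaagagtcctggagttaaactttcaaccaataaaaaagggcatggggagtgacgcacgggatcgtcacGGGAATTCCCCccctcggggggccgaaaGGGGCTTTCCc
Rel (chr11:23770970-23771119, - strand): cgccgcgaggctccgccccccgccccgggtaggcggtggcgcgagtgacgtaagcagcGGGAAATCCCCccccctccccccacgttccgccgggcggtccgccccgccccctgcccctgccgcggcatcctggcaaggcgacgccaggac
Nfkbia (chr12:55492648-55492797, - strand): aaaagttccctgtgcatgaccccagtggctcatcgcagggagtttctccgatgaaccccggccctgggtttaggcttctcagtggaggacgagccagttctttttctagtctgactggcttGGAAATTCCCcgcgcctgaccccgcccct
Tnfaip3 (chr10:19015411-19015560, - strand): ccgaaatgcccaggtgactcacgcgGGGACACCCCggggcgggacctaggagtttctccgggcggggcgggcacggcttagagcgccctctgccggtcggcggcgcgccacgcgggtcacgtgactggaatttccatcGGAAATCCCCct
Rela (chr19:5637391-5637540, + strand): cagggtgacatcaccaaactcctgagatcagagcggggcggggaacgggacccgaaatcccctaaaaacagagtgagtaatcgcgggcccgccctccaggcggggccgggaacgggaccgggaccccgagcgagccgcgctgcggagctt

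In these stretches Nfkb2 and Tnfaip3 held 2 matches each, at most 12 bases before the start for the nearer one, and Rel and Nfkbia held 1 each. Nfkbie held 1 match, GGGGGATTCC, that began 106 bases before its start, and Bcl3 held 1, GGGAAGTCCC, that began at base 3 of the transcript. The window of Rela held none of these letters on either strand. Nfkb2 has 2 further annotated starts, whose windows share 1 match, and the second window of Tnfaip3 had none. Bcl3, which has a match, was lowest in Lxn-/- replicate 2 and not in WT replicate 3. The part of kB matches in the order of arrays was not tested.

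**Figure D3:**
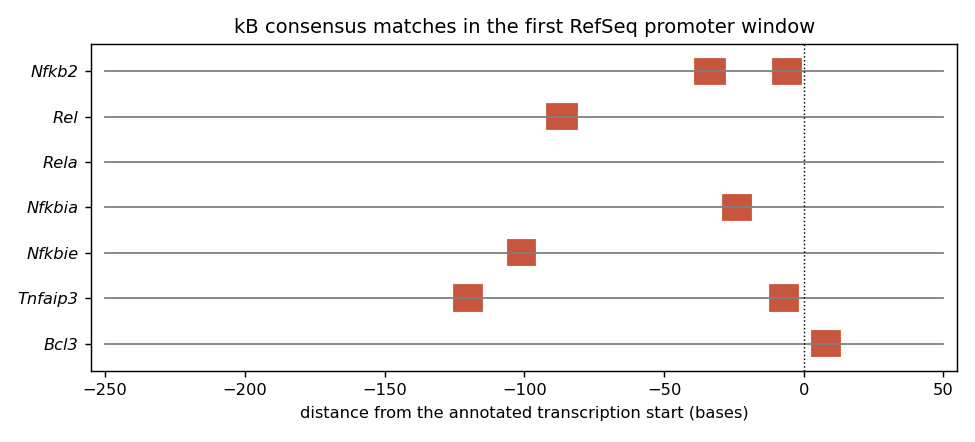
Position of kB consensus matches (red boxes, drawn to scale) in the first RefSeq promoter window of the 7 members with a window, as distance in bases from the annotated transcription start (dotted line). Within 39 bases before the start, Nfkb2 has 2 matches, and Nfkbia and Tnfaip3 have 1 each. The matches of Rel and Nfkbie begin 92 and 106 bases before the start. That of Bcl3 lies just after the start, and Rela has none.

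The rest of the pathway was described from lists of other genes, and none of their members passed the test (adjusted p in limma over all probe sets). Of 14 other IkB family genes and partners of A20, 7 were higher and 7 lower in Lxn-/-, with a median of 0.00045, and 7 were higher without WT replicate 3, with a median of -8.4e-05. Nfkbid, which encodes the nuclear IkB protein IkB-NS, had 10.26, 10.03 and 9.25 in WT and 10.54, 10.05 and 10.79 in Lxn-/-. Its difference of 0.61 (SE 0.27, unadjusted p = 0.0549 in limma) was larger than that of Nfkbiz and its genotypes overlapped, with WT replicate 3 again the lowest and a difference of 0.32 (SE 0.20) without it. Zc3h12a, an RNase that degrades inflammatory messages, differed by 0.39 (SE 0.18), and Tnip3, a partner of A20, by -0.20 (SE 0.17). With WT replicate 3 left out these differences were 0.18 for Zc3h12a and -0.097 for Tnip3.

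The median of each list of upstream genes was within 0.029 of 0. Ligands had a median of 0.029 with 6 of 11 higher, and 0.0038 with 6 of 11 higher without WT replicate 3; 7 of these 11 were above background. Ltb, which signals through the lymphotoxin beta receptor, differed by -0.16 (SE 0.090), Tnfsf13b (BAFF) by 0.15 (SE 0.12) and Tnfsf11 (RANKL) by -0.091 (SE 0.074). Receptors had a median of -0.013 with 8 of 16 higher, and 0.0012 with 8 of 16 higher without WT replicate 3. Their differences ran from -0.45 to 0.15. The costimulatory receptor gene Cd40 differed by -0.21 (SE 0.11), the toll-like receptor gene Tlr6 by -0.11 (SE 0.068) and the BAFF receptor gene Tnfrsf13c, a marker of B cells, by -0.45 (SE 0.35). Of the 16 receptors, only Tlr6 was lower in Lxn-/- without overlap, against 5.49% of all genes. Without WT replicate 3 the difference was -0.20 for Tnfrsf13c and -0.044 for Tnfsf11.

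Adaptors and kinases had a median of 0.016 with 13 of 21 higher, and -0.019 with 10 of 21 higher without WT replicate 3. The adaptor gene Traf5 had 8.72, 8.70 and 8.62 in WT and 8.88, 8.77 and 8.91 in Lxn-/-. It was higher in Lxn-/- without overlap, as 3.3% of all genes were, and differed by 0.17 (SE 0.069, unadjusted p = 0.0360 in limma). Tradd, the adaptor of the TNF receptor, differed by -0.18 (SE 0.097) and Ikbkb, a kinase that marks IkB proteins for degradation, by 0.10 (SE 0.070), which became -0.093 and 0.060 without WT replicate 3.

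Of 31 target genes outside the members, 21 were higher in Lxn-/-, with a median of 0.057, and 21 were higher without WT replicate 3, with a median of 0.038. At an unadjusted p under 0.05 there were 0 of 31 in limma, where 3.76% of all genes passed in either direction. Ptgs2, which encodes the cyclooxygenase of inflammation, had 9.96, 9.92 and 8.79 in WT and 10.71, 9.55 and 11.17 in Lxn-/-. It differed by 0.92 (SE 0.44), and WT replicate 3 and Lxn-/- replicate 2 were its lowest arrays. Without that WT array it differed by 0.54 (SE 0.41). The difference was 0.34 (SE 0.16) for the stress sensor gene Gadd45b and 0.22 (SE 0.10) for Cxcl10, a chemokine that attracts T cells, and 0.19 and 0.17 without WT replicate 3.

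Immediate early genes, whose transcription starts soon after a stimulus such as dissociation and sorting, were higher in Lxn-/- for 23 of 25, with a median of 0.28, and for 19 of 25 with a median of 0.13 without WT replicate 3. At an unadjusted p under 0.05, 5 of 25 lay on the higher side in limma, where 1.28% of all genes did. Without overlap, 3 of 25 were higher, against 3.3% of all genes, and 0 were lower, against 5.49%. Junb, a subunit of AP-1, had 10.06, 10.02 and 9.59 in WT and 10.38, 10.19 and 10.27 in Lxn-/-, a difference of 0.39 (SE 0.13) with no overlap, and of 0.24 (SE 0.083) without WT replicate 3. The difference was 0.38 (SE 0.10) for Dusp2, which encodes a phosphatase of MAP kinases, and 0.77 (SE 0.31) for the orphan receptor gene Nr4a2, and 0.30 and 0.53 without that array. Their centred median by array was 0.11, -0.11 and -0.39 in WT and 0.11, 0.071 and 0.23 in Lxn-/-, so WT replicate 3 was lowest here as it was for the members. This list shares the gene Nr4a1 with that of the targets. The part of the immediate early genes in the values of the members was not tested.

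Markers of other blood cells moved between the pools as well. All 12 neutrophil markers were above background, with a centred median of 0.88, 0.049 and -1.38 in WT and 0.28, -0.86 and 1.31 in Lxn-/-. Their mean level ran from 9.36 to 11.29 in the WT pools and from 9.82 to 11.65 in the Lxn-/- pools. WT replicate 3 and Lxn-/- replicate 2, the arrays with the lowest centred medians of the NF-kB members, also had the lowest centred medians of these markers. Erythroid markers had their highest centred medians in these arrays (0.41 and 0.16). So did T and NK cell markers (0.10 and 0.42) and stromal and endothelial markers (0.25 and 0.23). Among the members, Tnfaip3 was highest in Lxn-/- replicate 2, and Nfkbiz was above all WT arrays there. Not every neutrophil marker followed the median of its list. Elane, Mpo and Prtn3 had 13.24, 13.59 and 11.99 in Lxn-/- replicate 2, the second highest of the 6 arrays for each. WT replicate 3 and Lxn-/- replicate 2 also had the lowest centred median of the 3 markers of later progenitors Cd34, Flt3 and Cd48. This median was -0.011, 0.0046 and -0.19 in WT and 0.17, -0.14 and 0.15 in Lxn-/-. The median difference of these markers was 0.067 (0.05, with 2 of 3 higher, without WT replicate 3). Of the single genes only Flt3 was lowest in both arrays. Cd48 had 10.44 in Lxn-/- replicate 2, the second highest of its 6 arrays. Cd34 had 13.14 in WT replicate 3, above 13.08 in WT replicate 1. S100a8, an abundant neutrophil gene, had 11.50, 10.67 and 8.42 in WT and 11.08, 9.94 and 11.82 in Lxn-/-. The difference of the neutrophil list was 0.47 in the median, with 9 of 12 higher, and -0.19 with 1 of 12 higher without WT replicate 3.

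B cell and plasma cell markers went the other way, with 15 of 15 lower in Lxn-/- (8 of 15 at an unadjusted p under 0.05 in limma, against 2.47% of all genes), a median of -0.38 and mean levels from 9.98 to 10.45 in WT and from 9.80 to 9.96 in Lxn-/-. For 6 of 15 the Lxn-/- values were lower without overlap, against 5.49% of all genes. The difference was -0.80 (SE 0.12) for Mzb1, which antibody-secreting cells express, and -0.74 (SE 0.12) for the B cell coactivator gene Pou2af1. It was -0.61 (SE 0.23) for Cd79a, which encodes a part of the B cell receptor, and -0.35 (SE 0.17) when WT replicate 3 was left out. The median of the list without that array was -0.21 with 15 of 15 lower. Erythroid markers were lower for 10 of 10, with a median of -0.28, and mean levels from 9.95 to 10.50 in WT and from 9.67 to 10.24 in Lxn-/-. Without WT replicate 3 their median was -0.14, with 2 of 10 higher. In pools of cells, fewer cells of a type and less RNA per cell cannot be told apart. The part of these cell types in the values of the NF-kB members was not tested.

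**Figure D4:**
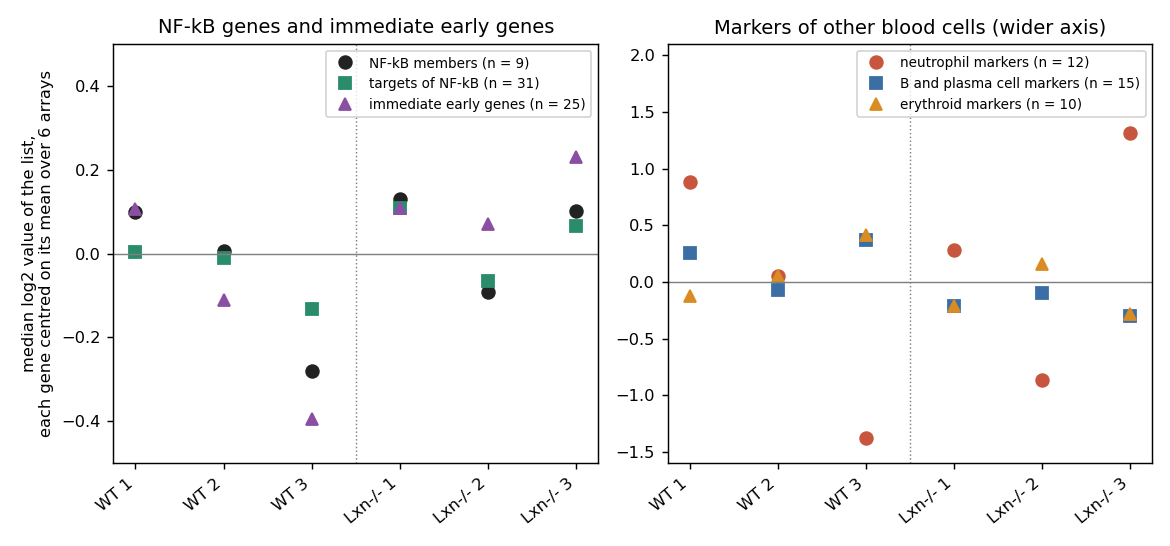
Median log2 value of gene lists in each array, every gene centred on its mean over the 6 arrays, for the NF-kB members, NF-kB targets and immediate early genes (left) and for markers of other blood cells (right, with a wider axis). The median of the members is lowest in WT replicate 3 (-0.28) and Lxn-/- replicate 2 (-0.092). The median of the neutrophil markers is also lowest in these arrays (-1.38 and -0.86), and that of the erythroid markers is highest in them (0.41 and 0.16).

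The remaining marker lists had medians closer to 0 with all 6 arrays. Monocyte, macrophage and dendritic cell markers had a median of 0.05. Their mean levels ran from 9.09 to 9.28 in WT and from 9.05 to 9.29 in Lxn-/-. The protease gene Ctss differed by -0.49 (SE 0.12) and was lower without overlap, as 5.49% of all genes were. In the same list Cd68 was higher without overlap, as 3.3% of all genes were. T and NK cell markers had a median of 0.05, with 9 of 12 above background, mean levels from 7.94 to 8.25 in WT and from 7.87 to 8.59 in Lxn-/-, and Lxn-/- replicate 2 highest (centred median 0.42). Stromal and endothelial markers had a median of -0.0068, with mean levels from 8.38 to 8.99 in WT and from 8.24 to 8.97 in Lxn-/-, and stem cell markers one of 0.04. Without WT replicate 3 the medians of these 4 lists were 0.024, 0.16, 0.094 and 0.067.

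The pattern over arrays of Tnfaip3, the member with the largest SD, was most closely matched by Scarna13, Mir17, Snora31, Zcwpw2 and Snora3. Likeness was measured over the 6 arrays as the root mean square difference of mean-centred log2 values, which was 0.064 for Scarna13, 0.091 for Mir17, 0.092 for Snora31, 0.12 for Zcwpw2 and 0.12 for Snora3. Scarna13, a small Cajal body RNA, had 12.18, 12.06 and 11.28 in WT and 12.14, 12.48 and 12.13 in Lxn-/-. Like Tnfaip3 it was lowest in WT replicate 3 and highest in Lxn-/- replicate 2. Zcwpw2 was below the background level in all WT and Lxn-/- arrays, with means of 6.39 and 6.63.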

How the data were processed

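RNA of 6 pools of LT-HSCs, 3 per genotype, was measured on 1 array each; 100 ng of RNA was labelled per the labels' protocols. The deposited log2 values were normalized by the authors with RMA, per the series' design text, and RMA and Partek 6.0 are named per the submitters' processing notes. Not given in the sources used here are the background step, the probe set version, batches and dates. Symbols came from GEO's platform annotation, and 21789 of the 35557 probe sets had 1 symbol, 1621 several and 12147 none. Only probe sets with 1 symbol named a gene, and of several for 1 gene the brightest by the mean of 6 arrays was taken. The comparison of genotypes used limma 3.58.1 under R 4.3.3 (lmFit and eBayes, default settings, no covariate, two-sided, Benjamini-Hochberg over 23410 probe sets, threshold 0.05), a step that was tested on simulated data. SE is limma's moderated standard error and SD is over 3 arrays unless stated. RMA fits all arrays together, so the log2 values of an array depend partly on the others, and precision is limited by having 3 arrays per genotype.

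The members and gene lists were chosen with earlier results of these data known, so counts and medians of lists describe these arrays and no list was tested. Named genes were all members, Lxn, defining markers, the 3 genes of lowest unadjusted p in each list, not all of which are printed, and the 5 genes most like the member of largest SD. Other settings were 2 rescalings of the arrays, a filter on dim probe sets, all probe sets, array weights, a trended robust variance, the mean of all probe sets of a gene, a replicate block and each array left out. Lists without WT replicate 3 were added after the data were seen. Pools were not treated as paired by replicate number in the main fit. Deviations from the genotype means correlated over probe sets with r of 0.372, -0.0719 and -0.0807 for pools of the same number. For pools of different numbers r ran from -0.336 to 0.362. These values cannot tell whether any pools shared a batch.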

Additional observations from a re-analysis of the deposited data

How the results depend on the processing

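Under all 14 other settings tried, 0 of 9 members were called in limma, and under the 13 settings that were run over probe sets 0 probe sets were. The lowest adjusted p of a member was 0.639, for Nfkbiz with array weights, where its difference was 0.33. Of 126 member differences recomputed, 114 kept their direction and 12 did not, and those belong to members near 0. Nfkbia was at -0.027 with a common median of the arrays and at -0.0038 with array weights, and Relb at 0.010 with array weights. With single arrays left out the ranges were -0.048 to 0.20 for Nfkb2, -0.084 to 0.016 for Rela, -0.10 to 0.069 for Relb and -0.15 to 0.14 for Nfkbia. Rel (0.14 to 0.34), Nfkbie (0.028 to 0.16), Nfkbiz (0.22 to 0.54), Tnfaip3 (0.094 to 0.48) and Bcl3 (0.0039 to 0.19) stayed above 0. The median of the members ran from 0.028 without WT replicate 3 to 0.16 without WT replicate 1, was 0.15 without Lxn-/- replicate 2, and was 0.046 with a common median, which moved the median of all genes to -0.058. The replicate block left the members' median at 0.091 and changed no call, and the samples share only a number. With 3 arrays per genotype the median SE over all genes was 0.083, and 5 of the 9 members had a difference smaller than their own SE.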
